A study of Mus musculus with 20 samples.

Results

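The nuclear genes for respiratory complexes II to V were 49 of the 55335 genes in the count table. They were the protein-coding genes Sdha, Sdhb, Sdhc, Sdhd and Cyc1 and those whose symbols begin with Uqcr, Cox4 to Cox8 or Atp5 in the GENCODE vM21 annotation, chosen by name and not by any measured value. By complex they numbered 4 for complex II, 9 for complex III, 18 for complex IV and 18 for complex V. Of these, 45 had enough reads to be tested. The other 4 were Cox6b2, with 2 to 21 counts per library, Cox7b2, with 0 to 5, Cox8c, with 0, and a second Atp5o record (ENSMUSG00000116933) whose exons overlap Donson, also with 0. Cox7a2l, a factor of respiratory supercomplexes, and Atp5s, which is no structural subunit, are included because their symbols match.

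RNA came from powdered hearts of C57BL/6N mice that were 3 to 5 months old and kept on NIH-31 feed. The mice, WT or OGFOD1-KO, carried osmotic minipumps for 2 weeks, filled with PBS and sodium ascorbate (vehicle) or with the same solution plus isoproterenol. Isoproterenol stimulates beta-adrenergic receptors, and hearts given it for long become enlarged. OGFOD1 is an oxygenase that hydroxylates the ribosomal protein Rps23, and the study asked how its loss alters the response of the heart to isoproterenol. Every group thus received sodium ascorbate and carried a pump, and the WT vehicle, WT isoproterenol, KO vehicle and KO isoproterenol groups had 5 libraries each. The sources used here do not say how the knockout was made or whether it was limited to some cells. The labels do not state that the libraries of a group came from different mice, so the tests speak of the spread from library to library.

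Each library held between 14609808 and 43671055 counts, and mt-Rnr2, a ribosomal RNA of the mitochondrial genome, made up 36.9% to 46.4% of them. The 49 genes took 2.08% to 2.72% of the 5916852 to 17121499 counts outside the mitochondrial genome. Ogfod1 measured 19.2 ± 1.44 and 20.2 ± 1.35 CPM (counts scaled to library size) in the WT vehicle and WT isoproterenol groups, and 3.19 ± 0.582 and 3.18 ± 0.681 CPM in the matching KO groups (SD, n = 5 each). KO isoproterenol library 5 stood apart from its group, with 19989 CPM over 8 cardiomyocyte markers against a group median of 25353, and 1691 CPM over 8 smooth muscle and pericyte markers against 764. WT vehicle library 2 had the highest cardiomyocyte sum of all 20 libraries, 34295 CPM. None of the 8 cardiomyocyte markers was at 0. Several results that rest on either library are given with and without it. The sums per complex, the shares of paired forms, the separations of groups and the counts of fold changes below 0 are given only with all libraries.

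Complex II (succinate dehydrogenase) oxidises succinate and passes the electrons to ubiquinone. Complex III takes them from ubiquinol to cytochrome c, complex IV uses them to reduce oxygen, and complex V makes ATP from the proton gradient that complexes III and IV help to build. Complex II is encoded wholly in the nucleus, whereas complexes III, IV and V combine nuclear subunits with some encoded by mitochondrial DNA. The heart depends on this chain for most of its ATP, and transcription factors such as NRF1, the ETS family factor GABP and the estrogen-related receptors are known to act at many of these promoters.

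Isoproterenol lowered more of these genes in KO than it did in WT by count, although the difference between the responses passed the test for none of them. In WT, Sdha and Atp5h fell and Cox4i2 rose. In KO, 12 genes fell, namely Sdha, Sdhb, Uqcrc1, Uqcrc2, Cox6a2, Cox6b1, Cox6c, Atp5c1, Atp5g1, Atp5h, Atp5j and Atp5k, and none rose. The changes were small: the 12 fell by 13.0% (Uqcrc2) to 22.1% (Cox6a2).

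In WT, 2 of 45 genes were lower and 1 higher with isoproterenol (edgeR quasi-likelihood test, adjusted p under 0.05). Over all 14878 genes tested, 4.12% were lower and 4.64% higher, so the share of the respiratory genes was near the background. In KO, 12 of 45 were lower and 0 higher, against 4.29% lower and 4.75% higher among all genes tested. At an unadjusted p under 0.05 the counts were 8 of 45 (17.8%) in WT and 24 of 45 (53.3%) in KO, beside 23.0% and 23.1% of all genes tested. The median log2 fold change of the 45 genes was −0.05 in WT and −0.17 in KO, beside 0.00 and 0.01 over all genes tested. The fold change lay below 0 for 30 of 45 in WT and for 43 of 45 in KO, beside 49.2% and 47.5% of all genes tested. By complex, the genes that fell in KO were 2 of 4 for complex II, 2 of 9 for complex III, 3 of 15 for complex IV and 5 of 17 for complex V. In a heart sample, fewer cardiomyocytes and less RNA per cardiomyocyte cannot be told apart.

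The number of falls in KO depended on single libraries, as did the number of calls over all genes tested, which was 1344 in KO and 1304 in WT with every library. Without KO isoproterenol library 5 the 12 falls were 6 (1134 calls over all genes), and without KO vehicle library 4 they were also 6 (1001). Without KO vehicle library 2 or library 3 they were 7 (1023 and 1010), and without KO isoproterenol library 2 they were 8 (1055). The 2 falls and 1 rise in WT became 1 fall without WT vehicle library 3 (1009 calls over all genes) and 4 falls and 1 rise without KO isoproterenol library 5 (1686). With WT vehicle library 2 and KO isoproterenol library 5 both left out, 6 genes fell in WT and 10 in KO, and none rose in either (1420 and 1262 calls over all genes).

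**Figure D1:**
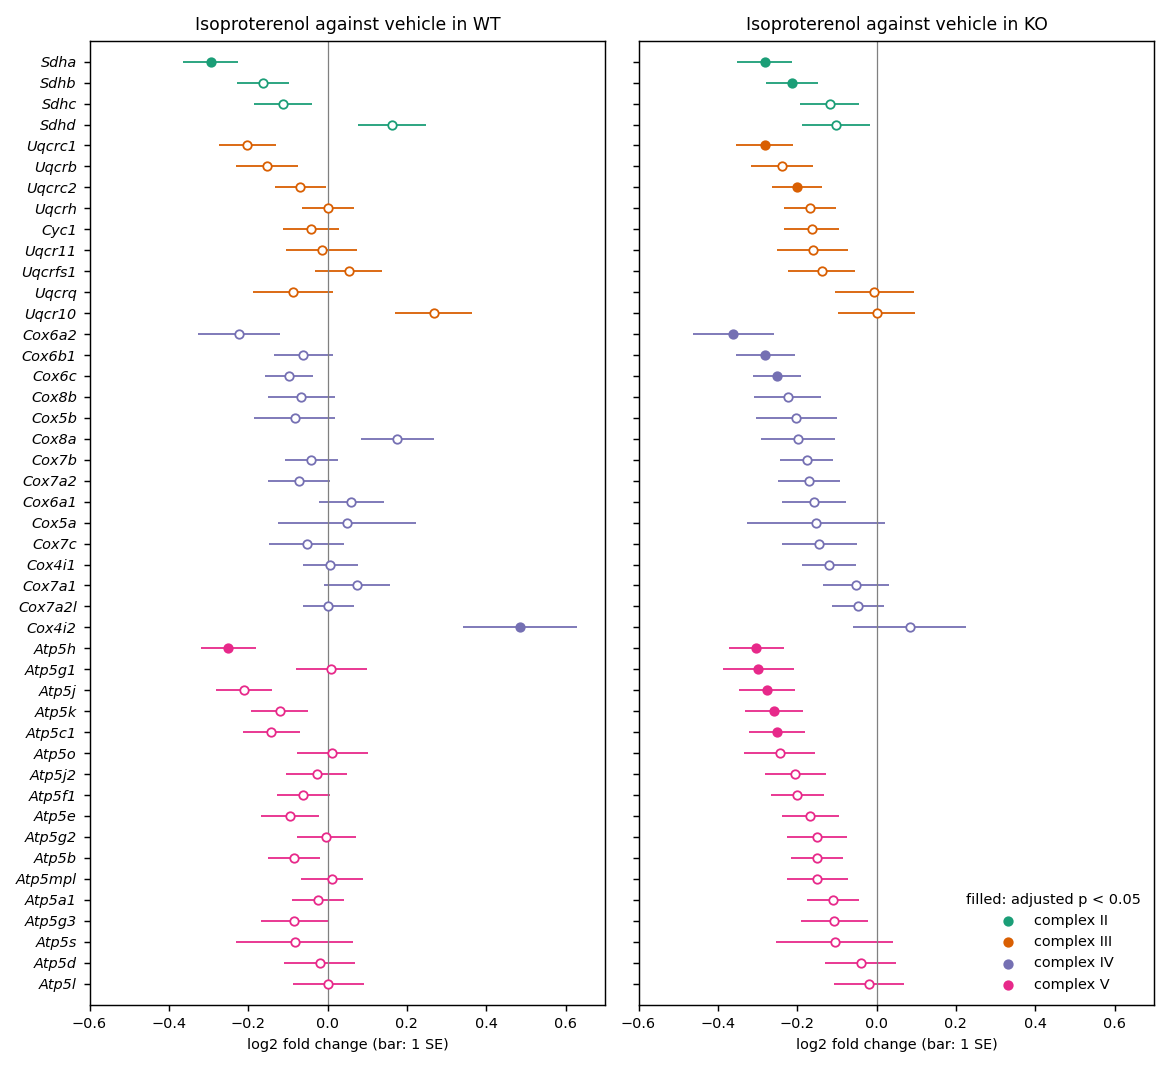
Log2 fold change with isoproterenol for the 45 tested genes in WT (left) and KO (right), by complex, with bars of 1 SE and filled points for an adjusted p under 0.05. In KO, 43 of 45 points lie below 0 and 12 are filled, and in WT 30 of 45 lie below 0 and 3 are filled.

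The promoter sequences of members that fell are shown because several carry the short motifs of factors known for respiratory genes. RefSeq (assembly GRCm38.p6) gave a window from 250 bases before to 50 bases after the start for 36 of the genes, and 9 of the 12 genes that fell in KO had one. Atp5c1, Atp5d and Atp5j had 2 windows each, and each gene is counted once. The shares of these genes are thus per gene, and those they are set against are per window. The NRF1 motif (GCGC, any base, then TGCGC), searched on both strands, was found for 9 of 36 genes (25.0%), against 4.60% of all 32851 windows of that length. The ETS motif CCGGAAG was found for 11 of 36 (30.6%), against 8.86%, and the estrogen-related receptor motif TCAAGGTCA for 2 (5.56%), against 0.423%. Of the 9 genes that fell in KO and had a window, 4 held the NRF1 motif, 4 the ETS motif and 0 the estrogen-related receptor motif. The E-box CACGTG was found for 4 of 36 genes (11.1%, against 7.15%), 1 of them Atp5g1, which fell in KO. Whether any of these motifs bears on the falls was not tested. YY1 (AAGATGGCG), MEF2 (CTA, 4 bases of any kind, then TAG) and CRE (TGACGTCA) motifs were found for 1 gene each (2.78%, against 1.40%, 3.69% and 1.79%). Overlaps between matches of different motifs were not removed, and a match is a stretch of letters, not a measured binding site. The 250 bases before the start are printed 5′ to 3′ in the direction of the gene for Sdha (chr13:74350241-74350490, minus strand), Atp5h (chr11:115419920-115420169, minus strand), Atp5k (chr5:108434400-108434649, minus strand) and Cox6b1 (chr7:30626115-30626364, minus strand), with motif matches in capitals.
Sdha: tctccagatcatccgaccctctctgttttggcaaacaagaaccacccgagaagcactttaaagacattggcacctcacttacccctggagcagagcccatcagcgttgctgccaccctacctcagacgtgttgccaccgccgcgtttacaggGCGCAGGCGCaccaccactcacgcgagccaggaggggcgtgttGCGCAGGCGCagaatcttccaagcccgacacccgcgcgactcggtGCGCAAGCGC
Atp5h: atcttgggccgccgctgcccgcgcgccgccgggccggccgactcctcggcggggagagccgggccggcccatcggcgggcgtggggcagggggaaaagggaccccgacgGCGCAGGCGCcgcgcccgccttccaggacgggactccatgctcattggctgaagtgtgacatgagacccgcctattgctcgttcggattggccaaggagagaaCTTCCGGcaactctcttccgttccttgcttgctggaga
Atp5k: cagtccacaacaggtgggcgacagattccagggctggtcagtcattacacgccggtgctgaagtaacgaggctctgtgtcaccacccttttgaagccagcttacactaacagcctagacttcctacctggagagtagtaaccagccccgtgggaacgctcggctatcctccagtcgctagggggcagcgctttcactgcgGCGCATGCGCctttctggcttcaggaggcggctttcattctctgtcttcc
Cox6b1: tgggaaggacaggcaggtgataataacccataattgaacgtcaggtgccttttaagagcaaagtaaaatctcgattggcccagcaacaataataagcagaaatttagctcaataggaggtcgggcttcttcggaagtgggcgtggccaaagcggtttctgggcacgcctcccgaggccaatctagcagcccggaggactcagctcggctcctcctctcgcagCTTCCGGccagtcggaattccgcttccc
The Sdha stretch holds 3 NRF1 matches, which begin 98, 55 and 10 bases before the start. Atp5h has an NRF1 match 141 bases and an ETS match 38 bases before it, Atp5k an NRF1 match 50 bases before it, and Cox6b1 an ETS match 28 bases before it. The start used is that of RefSeq. In GENCODE vM21 these genes begin further upstream, at 74350280 (Sdha), 115419962 (Atp5h), 108434448 (Atp5k) and 30626151 (Cox6b1). By that annotation the Sdha match at 10 bases and the ETS matches of Atp5h and Cox6b1 lie inside the gene. The Atp5k NRF1 match spans its edge. Uqcrc1 had 2 NRF1 matches and Sdhb and Atp5k 1 ETS match each that are not in the 250 bases before the start, and the windows of Atp5c1 and Atp5j held none of the motifs.

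Complex II was led by its catalytic subunits. Sdha (ENSMUSG00000021577, chromosome 13) encodes the flavoprotein that oxidises succinate. In WT, Sdha measured 449.9, 551, 476, 459 and 467 CPM with vehicle and 379, 375, 409, 383 and 412 CPM with isoproterenol. In KO it measured 391, 443, 446, 425 and 406 CPM with vehicle and 353, 347, 399, 343 and 295 CPM with isoproterenol. All 5 WT isoproterenol libraries lay below all 5 WT vehicle libraries, while in KO 1 isoproterenol library reached into the vehicle range. The log2 fold change was −0.29 in WT (SE 0.07, edgeR adjusted p = 0.00617) and −0.28 in KO (SE 0.07, edgeR adjusted p = 0.00860), with a difference between them of 0.01 (SE 0.10). WT vehicle library 2 was the highest of the 20 and KO isoproterenol library 5 the lowest, and without both the log2 fold changes were −0.24 and −0.22.

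Sdhb (ENSMUSG00000009863) encodes the iron-sulfur subunit that hands electrons on from the flavoprotein. It measured 225, 195, 220.4, 219 and 239 CPM in WT with vehicle and 189, 193, 203, 187 and 209 CPM with isoproterenol. The KO values were 198, 219, 222, 214 and 187 CPM with vehicle and 177, 189, 197, 176 and 157 CPM with isoproterenol. The groups overlapped in both genotypes. Sdhb fell in KO (log2 fold change −0.21, SE 0.07, edgeR adjusted p = 0.0396) and had a value of −0.16 in WT (adjusted p = 0.129). That call in KO was lost without any of 7 libraries taken singly, with adjusted p of 0.0508 without WT isoproterenol library 2, 0.0995, 0.114 and 0.0904 without KO vehicle libraries 2, 3 and 4, and 0.0727, 0.0794 and 0.110 without KO isoproterenol libraries 1, 4 and 5. It was also lost in a fit of only the KO groups (0.0818) and with both libraries that stood apart left out (0.0720). In WT the adjusted p of Sdhb ran from 0.0122 to 0.273 over all alternatives, so it passed in some of them. The membrane anchors Sdhc and Sdhd, which bind the complex to the inner membrane and to ubiquinone, did not pass in either genotype. Sdhc had −0.11 in WT and −0.12 in KO, and Sdhd 0.16 and −0.10.

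The complex III core subunits Uqcrc1 and Uqcrc2 fell in KO. Uqcrc1 (ENSMUSG00000025651) measured 362, 372, 405, 391 and 427 CPM with vehicle and 299, 338, 353, 331 and 379.8 CPM with isoproterenol in WT. In KO, Uqcrc1 measured 336, 394, 383, 398 and 352 CPM with vehicle and 317, 326, 322, 310.2 and 257 CPM with isoproterenol. The KO groups did not overlap, and the lowest value was again that of KO isoproterenol library 5. Its log2 fold change was −0.28 in KO (SE 0.07, edgeR adjusted p = 0.0114), or −0.22 without the libraries that stood apart, and −0.20 in WT (SE 0.07, edgeR adjusted p = 0.0745). The adjusted p of Uqcrc1 over all alternatives ran from 1.56e-04 to 0.0401 in KO and from 0.00223 to 0.193 in WT. It thus passed in WT under some of them. Uqcrc2, its partner in the core, went from 342 ± 27.8 to 298 ± 23.3 CPM in KO (SD, n = 5; log2 fold change −0.20, edgeR adjusted p = 0.0446) and from 332 ± 12.6 to 316 ± 16.8 CPM in WT (−0.07, adjusted p = 0.568). The Uqcrc2 call in KO was close to the threshold and held in 8 of the 20 fits that left out 1 library, those leaving out any 1 of WT vehicle library 2, WT isoproterenol libraries 1, 3 and 5, KO vehicle libraries 1 and 5 and KO isoproterenol libraries 1 and 3. In the others the adjusted p lay between 0.0501 (without WT vehicle library 1) and 0.140 (without KO vehicle library 3). It was 0.105 in a fit of only the KO groups and 0.0954 with both libraries that stood apart left out. Uqcrc2 shares exon sequence with Pdzd9 on the opposite strand.

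Among the small subunits, Uqcrb (ENSMUSG00000021520), which binds near the ubiquinone site, came closest to the threshold. It measured 277, 263, 241, 238 and 266 CPM and 233, 199, 238, 243 and 241 CPM in WT with vehicle and isoproterenol, and 240.2, 253, 303, 262 and 262 CPM and 245, 219, 259, 210.3 and 186 CPM in KO. The groups overlapped, with log2 fold changes of −0.15 in WT and −0.24 in KO (adjusted p = 0.0528). Uqcrb passed only for the mean of both responses (−0.20, SE 0.06, edgeR adjusted p = 0.0122), and it shares exon sequence with Gm10767 on the opposite strand. The other 6 genes, Cyc1 and Uqcrfs1 (the cytochrome c1 and Rieske iron-sulfur proteins), Uqcrh, Uqcrq, Uqcr10 and Uqcr11, passed in neither genotype. Their log2 fold changes ran from −0.09 (Uqcrq) to 0.27 (Uqcr10) in WT and from −0.17 (Uqcrh) to 0.00 (Uqcr10) in KO.

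In complex IV the muscle form Cox6a2 had the largest fall of the 45 genes in KO. Cox6a2 (ENSMUSG00000030785) replaces the ubiquitous Cox6a1 in heart and skeletal muscle. With vehicle and isoproterenol it measured 732, 592, 834, 731 and 889.9 CPM and 547, 672, 632, 634 and 752 CPM in WT. The KO libraries gave 653, 835, 718, 811 and 727 CPM with vehicle and 598, 603, 613, 641 and 460.3 CPM with isoproterenol. All KO isoproterenol values lay below all KO vehicle values, the WT groups overlapped, and KO isoproterenol library 5 was far below the other 4 of its group. The log2 fold change was −0.36 in KO (SE 0.10, edgeR adjusted p = 0.0276) and −0.22 in WT (SE 0.10, adjusted p = 0.191). The call in KO was lost without KO vehicle library 2 (adjusted p = 0.0784), KO vehicle library 4 (0.0738) or KO isoproterenol library 5 (0.0839). Without both libraries that stood apart, Cox6a2 fell in WT as well (−0.30, adjusted p = 0.0135) and in KO (−0.28, adjusted p = 0.0233). Over all alternatives the adjusted p of Cox6a2 ran from 7.91e-05 to 0.391 in WT and from 1.49e-05 to 0.0839 in KO. Cox6a2 shares exon sequence with Itgad on the opposite strand.

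Cox6b1 (ENSMUSG00000036751), a subunit on the cytochrome c side of the enzyme, measured 260.4, 200.1, 251, 236 and 267 CPM with vehicle and 205, 231, 236, 233 and 261 CPM with isoproterenol in WT. In KO, Cox6b1 measured 226, 259, 259, 263 and 224 CPM with vehicle and 216, 200.4, 201, 208 and 188 CPM with isoproterenol. The KO groups were separate and the WT groups overlapped almost wholly. Cox6b1 fell in KO (−0.28, SE 0.07, edgeR adjusted p = 0.0143) and had −0.06 in WT (adjusted p = 0.675), but the difference of −0.22 (SE 0.10) did not pass (edgeR adjusted p = 0.639). Cox6c (ENSMUSG00000014313), a small membrane subunit, gave 197, 172, 198, 187 and 201 CPM and 169, 169.6, 180.5, 181 and 194 CPM in WT, and 182, 196, 209, 203 and 187 CPM and 168, 164, 169, 172 and 148 CPM in KO, for vehicle and isoproterenol. Its KO groups were separate too. The fall in KO was −0.25 on the log2 scale (SE 0.06, edgeR adjusted p = 0.00786), against −0.10 in WT (adjusted p = 0.362). The exons of Cox6c overlap Vps13b on the opposite strand.

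Cox4i2 (ENSMUSG00000009876), the form of subunit IV known from lung and smooth muscle, was the 1 gene of the 45 that rose with isoproterenol. It was rare, at 47 to 277 counts per library. Cox4i2 measured 3.83, 3.28, 3.83, 3.86 and 4.45 CPM with vehicle and 3.47, 5.65, 4.40, 6.49 and 6.92 CPM with isoproterenol in WT. In KO the values were 3.92, 5.20, 3.90, 4.82 and 4.31 CPM and 4.84, 4.76, 4.36, 5.05 and 4.55 CPM. In WT, 3 of the 5 isoproterenol libraries lay above all vehicle libraries and the other 2 lay within their range, and the KO groups overlapped. The log2 fold change was 0.48 in WT (SE 0.14, edgeR adjusted p = 0.0320) and 0.08 in KO (adjusted p = 0.790), with no difference that passed (−0.40, adjusted p = 0.661). This rise was lost in a fit of only the WT groups (adjusted p = 0.0591), with 2 surrogate variables (0.0516) and without 7 libraries taken singly. Those were WT vehicle libraries 1 to 4 (0.0547, 0.0741, 0.0611 and 0.0626) and WT isoproterenol libraries 2, 4 and 5 (0.0580, 0.132 and 0.0912). Over all alternatives its adjusted p ran from 0.00392 to 0.132. Of 8 smooth muscle and pericyte markers, 2 rose in WT, Rgs5 (0.43) and Pdgfrb (0.28). The sum of the 8 in WT was 589 to 685 CPM with vehicle and 703 to 808 CPM with isoproterenol. In KO, 2 of the 8 rose. Among all genes tested, 4.64% rose in WT and 4.75% in KO. The KO sum of the 8 markers was 640 to 753 CPM with vehicle and 730 to 1691 CPM with isoproterenol. The 1691 CPM was that of KO isoproterenol library 5, against a group median of 764. The median log2 fold change of the 8 was 0.16 in WT and 0.47 in KO. The part of these cells in the rise of Cox4i2 was not tested.

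The remaining complex IV genes passed in neither genotype. Per kilobase of transcript, the muscle or heart form was the higher of each pair: Cox6a2 made up 95.5% ± 0.445 of Cox6a2 plus Cox6a1 in WT vehicle hearts, Cox7a1 86.7% ± 1.14 of Cox7a1 plus Cox7a2, and Cox8b 75.1% ± 0.748 of Cox8b plus Cox8a (SD, n = 5). Cox4i2 made up 1.43% ± 0.0560 of Cox4i2 plus Cox4i1. With isoproterenol, the Cox8b share was 71.9% ± 2.28 in WT and 75.7% ± 2.30 in KO, beside 76.1% ± 0.877 in KO with vehicle. The Cox6a2 share was 94.6% ± 0.0695 in WT and 94.3% ± 1.34 in KO with isoproterenol and 95.1% ± 0.375 in KO with vehicle, and the Cox7a1 share stayed between 86.7% and 87.8% as a group mean. These shares were not tested.

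Cox8a (ENSMUSG00000035885), the ubiquitous form of subunit VIII, had fold changes of opposite sign in WT and KO. It measured 45.4, 39.1, 48.9, 48.1 and 57.6 CPM in WT with vehicle and 44.9, 51.6, 54.0, 55.0 and 65.2 CPM with isoproterenol, with a log2 fold change of 0.18 (adjusted p = 0.260). In KO it measured 40.1, 50.6, 45.6, 53.9 and 47.9 CPM with vehicle and 40.4, 41.9, 38.4, 41.9 and 45.0 CPM with isoproterenol, a change of −0.20 (adjusted p = 0.198). Neither change passed, and the groups overlapped in both. For its partner Cox8b, the values were 95.6, 74.8, 97.2, 95.4 and 109.9 and 89.3, 92.9, 84.1, 85.2 and 101 CPM in WT, and 86.4, 108, 99.0, 110.3 and 92.6 and 81.3, 91.1, 85.3, 92.4 and 74.9 CPM in KO. Cox8b had log2 fold changes of −0.07 in WT and −0.22 in KO (adjusted p = 0.0911).

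Cox6a1 gave 30.4, 27.0, 29.8, 28.7 and 32.1 and 26.3, 31.9, 30.5, 29.7 and 36.4 CPM in WT with vehicle and isoproterenol, and 31.0, 35.3, 27.6, 35.2 and 33.3 and 27.4, 26.9, 29.5, 27.8 and 34.1 CPM in KO. Its log2 fold changes of 0.06 and −0.16 did not pass. Cox7a1 gave 265, 263, 254, 271 and 310.4 and 284, 267, 312, 306 and 267 CPM in WT, and 234, 280.2, 317, 294 and 261 and 274, 271, 299, 281 and 212 CPM in KO (0.07 and −0.05). Cox7a2 gave 72.9, 58.1, 73.0, 69.8 and 78.1 and 59.6, 64.8, 69.1, 62.4 and 79.6 CPM in WT, and 65.6, 73.2, 76.6, 71.3 and 61.5 and 63.4, 59.2, 63.9, 64.0 and 58.8 CPM in KO (−0.07 and −0.17). The groups of all 3 genes overlapped. Cox4i1, the usual subunit IV, gave 282, 242, 286, 273 and 302 and 251, 283, 277, 279.9 and 301 CPM in WT, and 268, 313, 296, 314 and 265 and 278, 279, 281, 266 and 236 CPM in KO (0.01 and −0.12), again with overlap. Cox5a, Cox5b, Cox7b, Cox7c and Cox7a2l had log2 fold changes from −0.08 to 0.05 in WT and from −0.20 to −0.05 in KO.

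**Figure D2:**
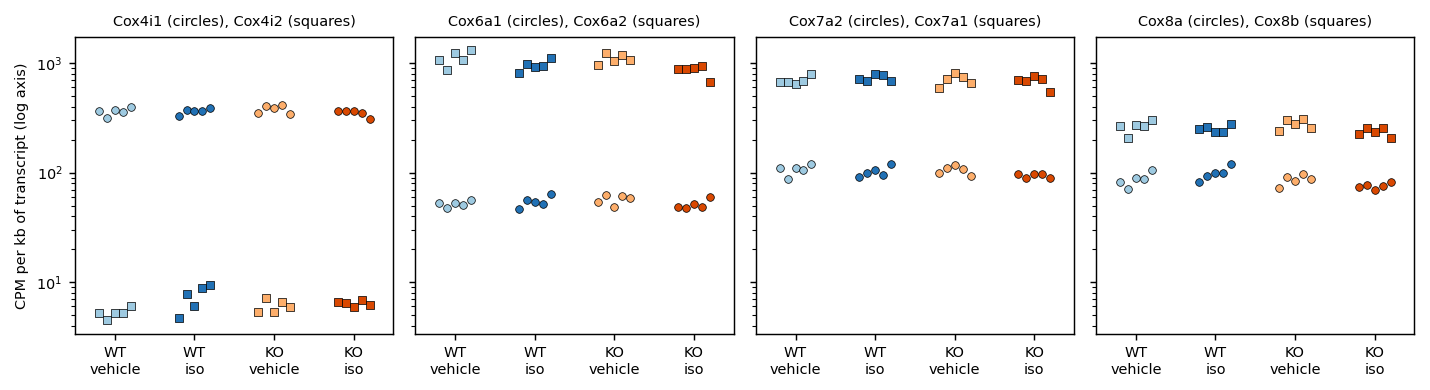
CPM per kilobase of transcript on a log axis for the paired forms of complex IV subunits, with 1 point per library in 4 groups of 5 (iso, isoproterenol). The muscle forms Cox6a2, Cox7a1 and Cox8b (squares) lie above Cox6a1, Cox7a2 and Cox8a (circles) in all 20 libraries, and Cox4i2 (squares) lies below Cox4i1 (circles).

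Complex V had 5 genes that fell in KO, spread over its parts. Atp5h (ENSMUSG00000034566), subunit d of the peripheral stalk that holds the catalytic head in place, fell in both genotypes. In WT it measured 316, 291, 345, 312 and 362 CPM with vehicle and 260.2, 268, 274, 283 and 282 CPM with isoproterenol. In KO, Atp5h measured 302, 353, 341, 337 and 309 CPM with vehicle and 298, 257, 274, 277 and 226 CPM with isoproterenol. Neither pair of groups overlapped. Log2 fold changes were −0.25 in WT (SE 0.07, edgeR adjusted p = 0.0212) and −0.30 in KO (SE 0.07, edgeR adjusted p = 0.00492), and the KO fall held in every fit that left out 1 library. The WT fall was lost without WT vehicle library 3 (adjusted p = 0.0602), WT vehicle library 5 (0.0727) or WT isoproterenol library 1 (0.0527). Sdha and Atp5h were the 2 of 45 genes whose WT groups were separate with isoproterenol lower, against 3.75% of all genes tested.

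Atp5j (ENSMUSG00000022890), coupling factor 6 of the same stalk, measured 55.4, 72.1, 62.6, 56.6 and 59.7 CPM with vehicle and 48.0, 51.0, 53.4, 55.2 and 56.7 CPM with isoproterenol in WT. In KO it measured 55.1, 58.9, 65.5, 60.8 and 54.6 CPM with vehicle and 48.6, 51.1, 51.9, 46.2 and 45.5 CPM with isoproterenol. The KO groups were separate and the WT groups overlapped. Atp5j fell in KO (−0.28, SE 0.07, edgeR adjusted p = 0.0119) and just missed the threshold in WT (−0.21, adjusted p = 0.0561). Over all alternatives its adjusted p ran from 0.00286 to 0.0442 in KO and from 0.0370 to 0.193 in WT. Atp5j overlaps Gabpa on the opposite strand. Atp5f1, subunit b of the stalk, went from 289.7 ± 14.4 to 252 ± 18.1 CPM in KO (SD, n = 5; −0.20, adjusted p = 0.0553) and from 281 ± 21.8 to 269.6 ± 21.9 CPM in WT (−0.06). Atp5o, which joins the stalk to the head, had 0.01 in WT and −0.24 in KO (adjusted p = 0.0867).

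Atp5c1 (ENSMUSG00000025781) encodes the gamma subunit, the rotating shaft of the head. Its CPM values were 374, 330.3, 394, 355 and 411 with vehicle and 309, 332, 353, 329 and 367 with isoproterenol in WT. In KO they were 348, 404, 398, 409 and 361 with vehicle and 345, 315, 333, 346 and 274 with isoproterenol. The KO groups were separate by a narrow margin and the WT groups overlapped. Atp5c1 fell in KO (−0.25, SE 0.07, edgeR adjusted p = 0.0233), against −0.14 in WT (adjusted p = 0.232). The call was lost without KO vehicle libraries 2, 3 or 4 (0.0655, 0.0622 and 0.0716) or KO isoproterenol libraries 2 or 5 (0.0562 and 0.0639). In WT the adjusted p of Atp5c1 ran from 0.0153 to 0.441 over all alternatives, so it passed in some of them. The catalytic alpha and beta subunits Atp5a1 and Atp5b, at 1679 ± 82.6 and 1570 ± 99.5 CPM in WT with vehicle (SD, n = 5), did not pass (−0.11 and −0.15 in KO). Their smaller partners Atp5d and Atp5e had −0.04 and −0.17 in KO.

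Atp5k (ENSMUSG00000050856), subunit e of the membrane sector, measured 98.2, 85.5, 99.7, 102 and 109 CPM with vehicle and 81.4, 92.3, 89.1, 89.5 and 102 CPM with isoproterenol in WT. The KO values were 88.1, 95.6, 107, 101 and 88.8 CPM with vehicle and 85.4, 77.7, 83.8, 83.7 and 70.9 CPM with isoproterenol. Again only the KO groups were separate. Atp5k fell in KO (−0.26, SE 0.07, edgeR adjusted p = 0.0207), against −0.12 in WT (adjusted p = 0.332). That call was lost without KO vehicle libraries 3 or 4 (0.0783 and 0.0582) or KO isoproterenol libraries 2 or 5 (0.0515 and 0.0610). In WT the adjusted p of Atp5k ran from 0.0381 to 0.559 over all alternatives, so it passed in some of them. The other accessory genes Atp5j2, Atp5l and Atp5mpl ran from −0.21 to −0.02 in KO and did not pass, nor did Atp5s (−0.10).

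The 3 genes Atp5g1, Atp5g2 and Atp5g3 encode the same mature subunit c of the rotor ring. Atp5g1 fell in KO, from 219 ± 19.1 to 178 ± 9.86 CPM (SD, n = 5; −0.30, SE 0.09, edgeR adjusted p = 0.0343), and measured 201 ± 25.0 and 203 ± 30.6 CPM in WT (0.01, adjusted p = 0.966). The difference of −0.31 did not pass (adjusted p = 0.577), and the KO call was lost without KO vehicle libraries 2, 3 or 4 (0.0794, 0.0590 and 0.104) or KO isoproterenol libraries 1, 2 or 5 (0.0724, 0.0501 and 0.0981). Atp5g2 had −0.15 and Atp5g3 −0.11 in KO. In all, 11 of 45 genes had separate KO groups with isoproterenol lower, 0 in complex II, 1 in complex III, 3 in complex IV and 7 in complex V, against 4.31% of all genes tested.

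**Figure D3:**
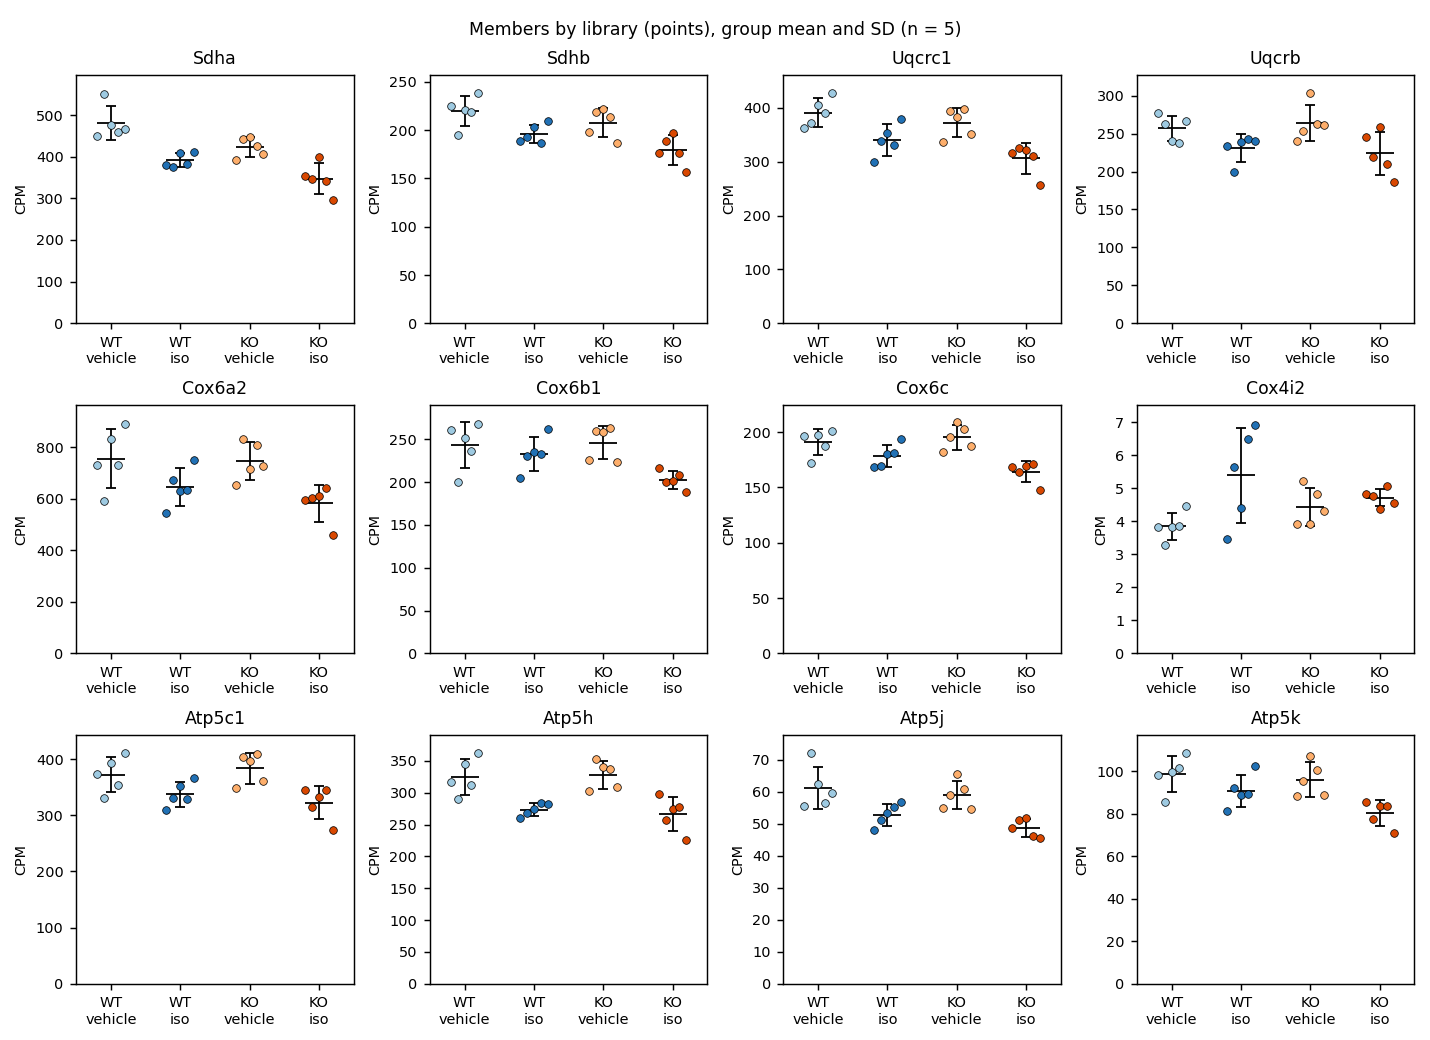
CPM of 12 genes in each library (points) with the group mean and SD (n = 5; iso, isoproterenol), for the genes with the smallest adjusted p in any comparison. For Atp5h the vehicle and isoproterenol libraries are separate in both genotypes, for Sdha in WT and for Uqcrc1, Cox6a2, Cox6b1, Cox6c, Atp5c1, Atp5j and Atp5k in KO, and 3 of 5 WT isoproterenol libraries lie above all WT vehicle libraries for Cox4i2.

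Averaged over both genotypes, isoproterenol lowered 13 of 45 genes and raised 1, against 9.07% lower and 9.76% higher among all genes tested (edgeR, adjusted p under 0.05). This comparison uses the same libraries as the responses in WT and KO. The 13 were 11 of the 12 that fell in KO, without Atp5g1 (−0.14, adjusted p = 0.113), together with Uqcrb and Atp5f1 (−0.13, adjusted p = 0.0497). The gene that rose was Cox4i2 (0.28, adjusted p = 0.0483), whose call held in 6 of the 20 fits that left out 1 library, those leaving out any 1 of WT vehicle library 5, WT isoproterenol libraries 1 and 3, KO vehicle library 2 and KO isoproterenol libraries 3 and 5. The call of Atp5f1 held in 5 such fits, leaving out any 1 of WT vehicle library 2, WT isoproterenol library 5, KO vehicle libraries 1 and 5 and KO isoproterenol library 3, and that of Uqcrc2 in 9, leaving out any 1 of WT vehicle libraries 2, 3 and 4, WT isoproterenol libraries 3 and 5, KO vehicle libraries 1 and 5 and KO isoproterenol libraries 1 and 3. Adjusted p over all alternatives ran from 0.00835 to 0.119 for Cox4i2, from 0.00196 to 0.103 for Atp5f1 and from 0.0172 to 0.0747 for Uqcrc2. The Cox4i2 call was also lost with DESeq2 (0.0577) and limma-voom (0.0574). With relative log expression scaling (0.0505) and upper quartile scaling (0.0562) it was lost as well. The lowest adjusted p was that of Sdha (−0.29, SE 0.05, edgeR adjusted p = 8.28e-05).

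Under vehicle, none of the 45 genes passed for KO against WT (edgeR, 0 of 45 lower and 0 higher, and 1 at an unadjusted p under 0.05, beside 8.31% of all genes tested). Among all genes tested, 0.0672% were lower and 0.0605% higher. The median log2 fold change was −0.01, with 23 of 45 below 0, beside 49.2% of all genes tested. Sdha was the gene with the unadjusted p under 0.05, at −0.19 (SE 0.07, edgeR adjusted p = 0.402), and it was also the 1 gene of the 45 whose KO vehicle libraries all lay below all WT vehicle libraries, against 1.03% of all genes tested, while 0 of 45 lay wholly above, against 0.995%. Without WT vehicle library 2 the Sdha value was −0.13 (adjusted p = 0.724), and over all alternatives the adjusted p ran from 0.192 to 0.724. DESeq2 and limma-voom called 0 as well.

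Under isoproterenol, all 45 genes were lower in KO than in WT by their fold change, with a median log2 fold change of −0.12, yet 0 passed (edgeR; 11, or 24.4%, at an unadjusted p under 0.05, beside 13.0% of all genes tested). Among all genes tested, 0.128% were lower and 0.0538% higher by the test, 49.0% had a fold change below 0, and the median was 0.00. The values ran from −0.38 for Cox8a (SE 0.09, edgeR adjusted p = 0.0888) to −0.02 for Cox7a2l. No gene had separate groups with KO lower, against 1.13% of all genes tested, and none with KO higher, against 1.01%. Cox8a passed with DESeq2 (adjusted p = 0.0190) but not with limma-voom, as did Uqcrh (0.0483, and 0.142 with edgeR at −0.22). Both also passed with 2 surrogate variables (0.00685 for Cox8a and 0.0334 for Uqcrh). Cox8a passed too without WT isoproterenol library 1 (0.0220) or without WT vehicle library 2 (0.0454), and over all alternatives its adjusted p ran from 1.12e-04 to 0.204. With WT vehicle library 2 and KO isoproterenol library 5 both left out, the median over the 45 genes was −0.08.

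The difference between the responses in KO and WT passed for 0 of the 45 genes and for 0.0% of all genes tested in either direction (edgeR; 4 of the 45, or 8.89%, at an unadjusted p under 0.05, near the 7.68% of all genes tested, and 0 by DESeq2 or limma-voom). The fitted difference was below 0 for 43 of 45 genes, with a median of −0.13. Over all genes tested, 49.3% lay below 0 and the median was 0.00. Cox8a had the lowest adjusted p (0.518, at −0.37, SE 0.13), and the other 3 at an unadjusted p under 0.05 were Atp5g1, Sdhd (−0.26) and Cox6b1. With both libraries that stood apart left out, the median difference was −0.03. This comparison shares its libraries with those above.

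Summed over each complex, levels were lowest in the KO isoproterenol group for all 4 complexes. Complex II summed to 942 ± 24.5 CPM in WT with vehicle and 829 ± 50.8 CPM with isoproterenol, and to 871 ± 53.8 and 749 ± 62.6 CPM in KO (SD, n = 5). Complex III gave 1625 ± 76.1 and 1539 ± 99.7 CPM in WT, and 1609 ± 113 and 1401 ± 117 CPM in KO. For complex II the WT groups were separate, by 908 against 915 CPM, and the KO groups overlapped. Complex IV gave 2714 ± 292 and 2583 ± 209 CPM in WT, and 2729 ± 216 and 2352 ± 196 CPM in KO. Complex V gave 5322 ± 327 and 5077 ± 433 CPM in WT, and 5263 ± 271 and 4708 ± 345 CPM in KO. For complexes III and IV the groups overlapped in both genotypes, and for complex V the KO groups were separate, by 4936 against 4967 CPM. KO isoproterenol library 5 had the lowest sum of all 20 libraries for each complex, down to 2004 CPM for complex IV and 4096 CPM for complex V. As a median over the 45 genes relative to the WT vehicle mean, that library lay at −0.36 on the log2 scale, the other 4 KO isoproterenol libraries at −0.14 to −0.12, and the WT vehicle libraries at −0.17 to 0.15. The sums follow their most abundant genes, such as Atp5a1 and Atp5b in complex V, which did not pass, and Cox6a2 in complex IV. The sums were not tested.

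**Figure D4:**
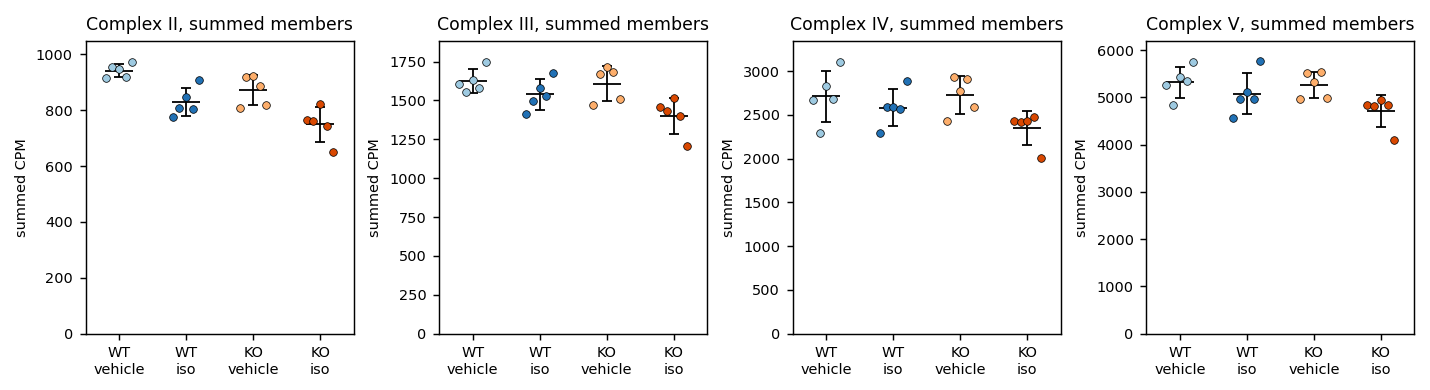
Summed CPM of the nuclear genes of each complex per library (points), with the group mean and SD (n = 5; iso, isoproterenol). The lowest point in each panel is KO isoproterenol library 5, for example 2004 CPM for complex IV.

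Per kilobase of transcript, Cox6a2 was the most abundant of the genes, at 1112 ± 168 CPM per kb in WT with vehicle (SD, n = 5), ahead of Atp5b (820 ± 51.9), Cox7a1 (694 ± 55.6) and Atp5a1 (680 ± 33.4). Uqcrb (480 ± 31.6) led complex III and Sdhb (192 ± 13.8) led complex II, with Sdha at 166 ± 13.9 CPM per kb. The spreads of Cox7a1 and Atp5a1 overlapped. Cox4i2 (5.25 ± 0.564) and Atp5s (3.49 ± 0.639) were the lowest of those tested. These lengths are those of 1 annotated principal transcript per gene, and the transcripts in use were not measured. With the union of all exons as the length, the order within complex II turned (Sdha 99.5 and Sdhb 89.7 CPM per kb as means of all 20 libraries), and Atp5b was the fourth, behind Cox6a2, Cox7a1 and Atp5a1.

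Lists of other genes that serve the chain were counted in the same way, against the shares of all genes tested given above (4.12% lower and 4.64% higher in WT, 4.29% and 4.75% in KO). The list of complex I subunits (38 tested, symbols beginning with Nduf other than Ndufaf) had 1 gene higher and 0 lower in WT, and 0 higher and 12 lower in KO, among them Ndufs4 (−0.44), Ndufb5 (−0.29), Ndufa9 (−0.28) and Ndufs1 (−0.27). Its median was −0.07 in WT and −0.19 in KO. The riser in WT was Ndufa4l2 (0.38), a relative of Ndufa4. Ndufa4 itself, now counted as a subunit of complex IV and named here after its value was seen, fell in KO (−0.26). Of 35 assembly factors of complexes II to V, 1 was higher in WT, the complex IV factor Coa5 (0.24), and 6 were lower in KO. They included the complex III factors Uqcc1 (−0.45) and Bcs1l (−0.34), the complex II factor Sdhaf2 (−0.33) and the complex V factor Tmem70 (−0.31). In the list of cytochrome c and electron carriers, 1 of 11 was lower in WT, the coenzyme Q gene Coq8a (−0.27), and 4 in KO, namely Coq8a (−0.33), Coq3 (−0.32), Coq4 (−0.44) and Coq6 (−0.31).

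Of the 6 mitochondrially encoded subunits of complexes III to V, 0 passed in either genotype (edgeR), with medians of −0.20 in WT and −0.23 in KO. Of all 13 mitochondrially encoded protein genes only mt-Nd3 passed within a genotype, in KO (−0.47). For the mean of both responses, 2 of those 6 (median −0.22) and 5 of the 13 (median −0.28) were lower, against 9.07% of all genes tested. The median of the 45 nuclear genes there was −0.11. Under isoproterenol the KO against WT median of those 6 was 0.05, beside −0.12 for the 45 nuclear genes. Among 17 regulators, the coactivator Ppargc1b (−0.46) and Mef2a (−0.20) fell in WT, and the nuclear receptors Ppara (−0.52) and Esrrg (−0.30), the mitochondrial mRNA factor Lrpprc (−0.29) and the mitochondrial transcription factor Tfb2m (−0.27) fell in KO. Of 13 genes for mitochondrial mass and membrane, the chaperonin Hspd1 (−0.39) and citrate synthase, Cs (−0.32), fell in WT. In KO they fell again (−0.47 and −0.35), with the cristae genes Immt (−0.25) and Opa1 (−0.21). None of these lists had a gene that passed for KO against WT or for the difference of the responses.

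Markers of other cells moved with the same treatment. Of 8 fibroblast markers, 4 rose with isoproterenol in WT and 3 in KO, and of 8 macrophage markers 3 rose in WT and 4 in KO. Among all genes tested, 4.64% rose in WT and 4.75% in KO, and 4.12% and 4.29% fell. Of 8 endothelial markers, Pecam1, Emcn and Cdh5 rose in WT (0.29, 0.33 and 0.23), and in KO none rose and Kdr fell (−0.31). Their summed level was 525 to 554 CPM with vehicle and 565 to 624 CPM with isoproterenol in WT, and 547 to 583 CPM and 534 to 589.9 CPM in KO. None of them passed for the difference of the responses. Of 8 cardiomyocyte markers, Myl2, Myh6 and Actn2 fell in WT (−0.40, −0.50 and −0.32) and Myl2 in KO (−0.47). The fold change lay below 0 for 6 of the 8 in each genotype, and 0 passed as higher in either. For the mean of both responses, 4 of the 8 were lower and 1 higher, against 9.07% and 9.76% of all genes tested. The summed cardiomyocyte level was 28316 to 34295 CPM in WT with vehicle, 24222 to 26597 CPM in WT with isoproterenol, 26480 to 28894 CPM in KO with vehicle and 19989 to 26529 CPM in KO with isoproterenol. The fibroblast sum went from 979 to 1120 CPM up to 1183 to 1272 CPM in WT, and from 1093 to 1249 CPM up to 1303 to 1409 CPM in KO. Of 5 erythroid and 5 adipocyte markers tested, 0 passed in either genotype. The erythroid median log2 fold change was −0.46 in WT and 0.37 in KO. The erythroid sum was 642 CPM in KO isoproterenol library 5, against a group median of 350. The adipocyte median was 0.21 in WT and 0.05 in KO. Of 2 skeletal muscle markers tested, 1 fell in each genotype. No marker of these lists was at 0. The part of these shifts in the falls of the respiratory genes was not tested.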

How the data were processed

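RNA-seq counts of 20 mouse heart libraries, 5 per group, were analysed. Per the submitters' processing notes, reads were processed with HISAT2 2.1.0, featureCounts 1.6.3, R 3.6.0 and limma 3.40.6 on GRCm38, and the authors deposited 1 table of raw counts per gene. The sources used here do not state the annotation, the strand setting or the treatment of multi-mapped reads. Of 55335 gene identifiers, 55154 were found in GENCODE vM21, and 0 columns lacked a sample. Of the genes described, 14 share exon sequence with another gene, 12 of them on the opposite strand, and 8 pseudogenes are named after them, so their reads may be partly shared.

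The edgeR 4.0.16 quasi-likelihood test (R 4.3.3, filterByExpr, TMM scaling, robust fit) was run once over 14878 genes with a mean for each of 4 groups and 16 residual degrees of freedom, with Benjamini-Hochberg adjustment over all genes tested and a threshold of 0.05. CPM uses the TMM-scaled library size. CPM per kb uses the longest principal transcript of each gene. Alternatives were DESeq2 1.42.0, limma-voom (limma 3.58.1), relative log expression (RLE) and upper quartile scaling, no filter, removal of mitochondrially encoded genes, 2 surrogate variables (sva 3.50.0), only the groups compared, and each library left out. Tables and plots used Python 3.11.15, pandas 2.3.3, numpy 2.4.6 and matplotlib 3.10.9. The test was checked on simulated data with changes larger than the falls of the respiratory genes. That check therefore cannot show how often falls of their size are found.

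Values in every library were given for the 12 genes with the smallest adjusted p in any comparison and for the paired forms of complex IV subunits and Sdha. At most 4 genes per comparison list were named by smallest p. The genes were found by symbol and not by any measured value, but they and the lists were chosen with earlier results of these data known.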

Additional observations from a re-analysis of the deposited data

Results flagged for a closer look

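In 7 of 92 groups of 5 values examined, the sample at one end stood farther from the others than Dixon's critical value of 0.71 allows, and chance alone flags about 1 in 20 groups. In the KO isoproterenol group, library 5 was far below the other 4 for Cox6a2 (460.3 CPM) and Uqcrc1 (257 CPM). The same library was far below the others for the sum of complex IV (2004 CPM), the sum of complex V (4096 CPM) and the sum over all 49 genes (7958 CPM). Sdha was far above the rest of its group in WT vehicle library 2 (551 CPM), and Uqcrb was far below its group in WT isoproterenol library 2 (199 CPM).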

How the results depend on the processing

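The 3 genes that passed in WT with isoproterenol became 6 without the filter on low counts and 10 with 2 surrogate variables, while the calls over all genes went from 1304 to 1498 and 1446. The 12 in KO became 20 with 2 surrogate variables, with 1344 calls over all genes becoming 1892. Under isoproterenol, the 0 genes that passed for KO against WT became 2 with DESeq2, 1 without the filter and 2 with 2 surrogate variables, with 27 calls over all genes becoming 130, 250 and 136. The 14 that passed for the mean response became 25 with 2 surrogate variables (2801 and 3140 over all genes). Leaving out WT vehicle library 2 and KO isoproterenol library 5 together, an alternative chosen after seeing the data, gave 6 in WT and 1 for KO against WT under isoproterenol (1420 and 50 over all genes). With 1 library left out, the counts ran from 1 to 5 in WT, from 6 to 16 in KO, from 0 to 1 for KO against WT under isoproterenol and from 11 to 19 for the mean response, and were 0 throughout for KO against WT under vehicle and for the difference of the responses. The cause of these shifts was not tested. Of 29 gene results past the threshold, 18 passed under every alternative run, and of their 827 alternative values 0 changed sign and 100 missed the threshold. Of 97 gene results that did not pass, 13 passed under some alternative. No paired analysis was possible because the labels give no replicate numbers shared between groups. Depth limits Cox4i2 most, at 47 to 277 counts per library, and 4 of the 49 genes could not be tested.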
